A study of Mus musculus with 16 samples.

Results

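The T cell receptor beta chains described here carry hydrophobic residues at both letters 6 and 7 of the third complementarity-determining region (CDR3), counted from the conserved cysteine as letter 1. A chain was a member when its CDR3 beta had 12 or more letters and both letters were alanine, cysteine, phenylalanine, isoleucine, leucine, methionine, valine, tryptophan or tyrosine. Of 30489 clonotypes, 28973 had a CDR3 beta of 12 or more letters, and 740 of these were members (2.55%, 95% Clopper-Pearson interval 2.38 to 2.74%). The other 28233 are the comparison set. Cells of a library were joined into 1 clonotype when their TRB and their leading TRA were identical in V label, J label and CDR3 nucleotides, and each clonotype counts once whatever its number of cells.

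The receptors came from CD44high CD4+ T cells sorted from the spleen of mice grafted with Vk12653 multiple myeloma cells. All groups received an NK1.1-depleting antibody (50 µg at days -2 and 5) and the graft at day 0. They then received an agonistic antibody to 4-1BB, a costimulatory receptor also called CD137, or control IgG (20 µg at days 10, 13 and 16), and cells were taken at day 18. The 4 groups were Eomes wild type (WT, genotype label Eomes-IRES-GFP) and Eomes knockout (KO), each with IgG or anti-4-1BB, with 2 libraries per group, 1 from each of 2 experiments that the labels give as batches ASD1 and ASD2. The KO mice were Eomesfl/fl-CD4Cre in experiment 1 and Eomesfl/fl-ERT2CD4Cre in experiment 2, where tamoxifen was also given to the WT mice, so experiment and kind of knockout cannot be told apart. The number of mice behind each library, their age and their strain were not given in the sources used here. No p-value therefore measures the spread between mice. The permutation tests rest on the spread between these libraries. The fits of clonotype counts rest on a spread pooled over features, which for the TRBV labels lay close to counting error. The receptor files hold no transcripts of CD4, CD44 or Eomes, so neither the sort nor the knockout could be checked from them. The 8 gene expression libraries of the same samples were not analysed here.

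The alpha and beta chains of a T cell receptor each have a CDR3, built where a V, an optional D and a J segment are joined with trimmed ends and added bases. The letters in the middle of CDR3 beta lie over the peptide held by the MHC molecule and contribute many of the contacts with it. Hydrophobic side chains at the sixth and seventh letters have been associated in earlier work with receptors that react more readily to self peptides. No antigen or self-reactivity was measured in these files.

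The sequences of the members that the following results turn on are given as CDR3 beta nucleotides, 5′ to 3′, with the codons of letters 6 and 7 in capitals. The first 5 are examples of the most frequent residue pairs, the next 6 are beta chains shared between libraries, and the last 3 come from the larger clones. Of the 6 shared chains the first was in 3 libraries, and the other 5 were taken, by clonotypes and then cells, from 14 chains tied at 2 libraries. The last clone is 1 of 3 tied at 5 cells. The clone of 7 cells carries the TRBV19 chain already printed among the examples. Where a chain had several nucleotide forms, 1 is shown.
Alanine-tryptophan, TRBV12-2+TRBV13-2 and TRBJ2-3: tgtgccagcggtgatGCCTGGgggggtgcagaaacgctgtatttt
Alanine-leucine, TRBV19 and TRBJ2-3: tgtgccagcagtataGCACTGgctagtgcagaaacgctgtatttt
Alanine-alanine, TRBV12-2+TRBV13-2 and TRBJ2-7: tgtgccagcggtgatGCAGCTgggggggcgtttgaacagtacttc
Tyrosine-tryptophan, TRBV13-1 and TRBJ2-5: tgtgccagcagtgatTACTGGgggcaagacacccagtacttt
Alanine-tyrosine, TRBV12-2+TRBV13-2 and TRBJ2-3: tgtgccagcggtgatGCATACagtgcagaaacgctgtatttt
Shared, TRBV12-2+TRBV13-2 and TRBJ2-1: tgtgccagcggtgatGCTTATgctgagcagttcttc
Shared, TRBV12-2+TRBV13-2 and TRBJ2-5: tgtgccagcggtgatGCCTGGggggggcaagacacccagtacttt
Shared, TRBV13-1 and TRBJ2-1: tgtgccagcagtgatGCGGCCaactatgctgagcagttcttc
Shared, TRBV12-2+TRBV13-2 and TRBJ1-1: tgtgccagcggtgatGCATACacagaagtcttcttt
Shared, TRBV12-2+TRBV13-2 and TRBJ1-3: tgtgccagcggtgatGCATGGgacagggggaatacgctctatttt
Shared, TRBV12-2+TRBV13-2 and TRBJ1-6: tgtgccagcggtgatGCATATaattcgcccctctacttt
Large clone, TRBV13-1 and TRBJ2-7: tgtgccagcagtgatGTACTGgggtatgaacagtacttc
Large clone, TRBV3 and TRBJ2-1: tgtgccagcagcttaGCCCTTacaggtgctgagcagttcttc
Large clone, TRBV13-1 and TRBJ2-3: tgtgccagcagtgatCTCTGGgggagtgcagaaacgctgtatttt

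Each file gave the contigs of 1 library, with the count of unique molecular identifiers (UMIs) behind each. The libraries held 80551 to 445027 UMIs, with a median of 10 to 17 per TRB contig, where the anti-4-1BB library had the higher median at each experiment and genotype. Of 74368 cells, 38108 had 1 TRB and 1 or 2 TRA and were used. Pairs of libraries shared 11 to 76 cell barcodes, and 0 of these carried the same receptor in both.

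Hydrophobic centres made up 2.10 to 3.34% of the clonotypes of each library. In experiment 1 the members were 74 of 3272 clonotypes (2.26%) in WT with IgG and 185 of 7200 (2.57%) in WT with anti-4-1BB. The KO libraries of experiment 1 held 54 of 2205 (2.45%) with IgG and 60 of 2262 (2.65%) with anti-4-1BB. In experiment 2 the WT libraries held 116 of 3474 (3.34%) with IgG and 56 of 2669 (2.10%) with anti-4-1BB, the highest and the lowest of the 8 shares. The KO libraries of experiment 2 held 115 of 4535 (2.54%) and 80 of 3356 (2.38%). The intervals of counting error ran from 2.77 to 3.99% for the highest share and from 1.59 to 2.72% for the lowest, and did not overlap, while the groups themselves overlapped. Counted over cells in place of clonotypes, 880 of 36280 cells (2.43%) had a hydrophobic centre.

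**Figure D1:**
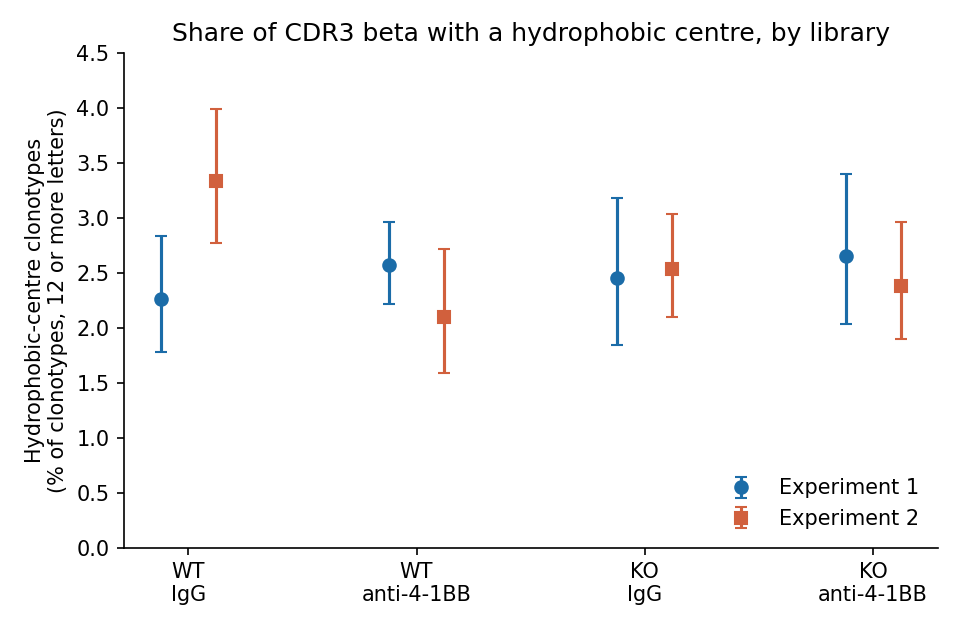
Percent of clonotypes with a hydrophobic centre (y axis) in each of the 8 libraries, by group (x axis) and experiment (colour and symbol), with 95% Clopper-Pearson intervals that cover counting error only. The shares run from 2.10 to 3.34%, and the 2 experiments of the WT IgG group lie farther apart than those of any other group.

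The share differed between anti-4-1BB and IgG by -0.22 ± 0.708 percentage points (SD over 4 combinations of experiment and genotype), with a higher share in 2 of 4. A two-sided exact permutation test within the combinations gave p = 0.875, where its 16 arrangements cannot go below 0.125. The difference was 0.256 points in experiment 1 and -0.696 in experiment 2. Without either WT library of experiment 2 it was 0.120 points, so those libraries set its direction. The UMI depth per chain also moved with treatment, and its part in these values was not tested beyond a minimum of 3 UMIs per chain, which left the direction as it was. KO differed from WT by -0.0618 ± 0.501 points (n = 4 combinations, higher in 3, exact permutation p = 1). This difference was 0.185 points without the IgG library of either genotype in experiment 2. No effect of treatment or genotype on the share was detectable with these 8 libraries.

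Hydrophobic residues at the 2 letters met less often than their separate frequencies would give. Letter 6 was hydrophobic in 20.2% of clonotypes and letter 7 in 19.5%, whose product is 3.93%, against the observed 2.55%. The ratio of observed to product was 0.553 to 0.717 in the 8 libraries, below 1 in each. Exactly 1 of the letters was hydrophobic in 34.6% of clonotypes and neither in 62.9%.

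Alanine at letter 6 was the commonest start of the pair. Alanine-tryptophan was the leading pair with 117 of 740 clonotypes (15.8%), followed by alanine-leucine with 92, alanine-alanine with 79, tyrosine-tryptophan with 45 and alanine-tyrosine with 42. Together these 5 pairs made up 50.7% of the members. The next were valine-alanine and valine-leucine with 28 each, valine-tryptophan with 26, alanine-valine with 24, and leucine-leucine and tryptophan-alanine with 22 each. Of 81 possible pairs, 48 were seen and 18 had 10 or more clonotypes. Alanine stood at letter 6 in 387 members (52.3%). The rule itself requires a hydrophobic residue there, and among all 5846 clonotypes with one at letter 6, alanine made up 37.4%. At letter 7 the members carried tryptophan in 215 (29.1%), leucine in 172 (23.2%) and alanine in 158 (21.4%), against 27.6, 23.9 and 21.7% of all clonotypes with a hydrophobic letter 7. Cysteine, which is in the set, was seen in 1 member at letter 7 and in 0 at letter 6. The members fell into all 9 combinations of small, aliphatic and aromatic residues. A small residue followed by an aromatic one was the most frequent with 174 clonotypes (23.5%), and an aromatic residue followed by a small one the least with 25 (3.38%).

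**Figure D2:**
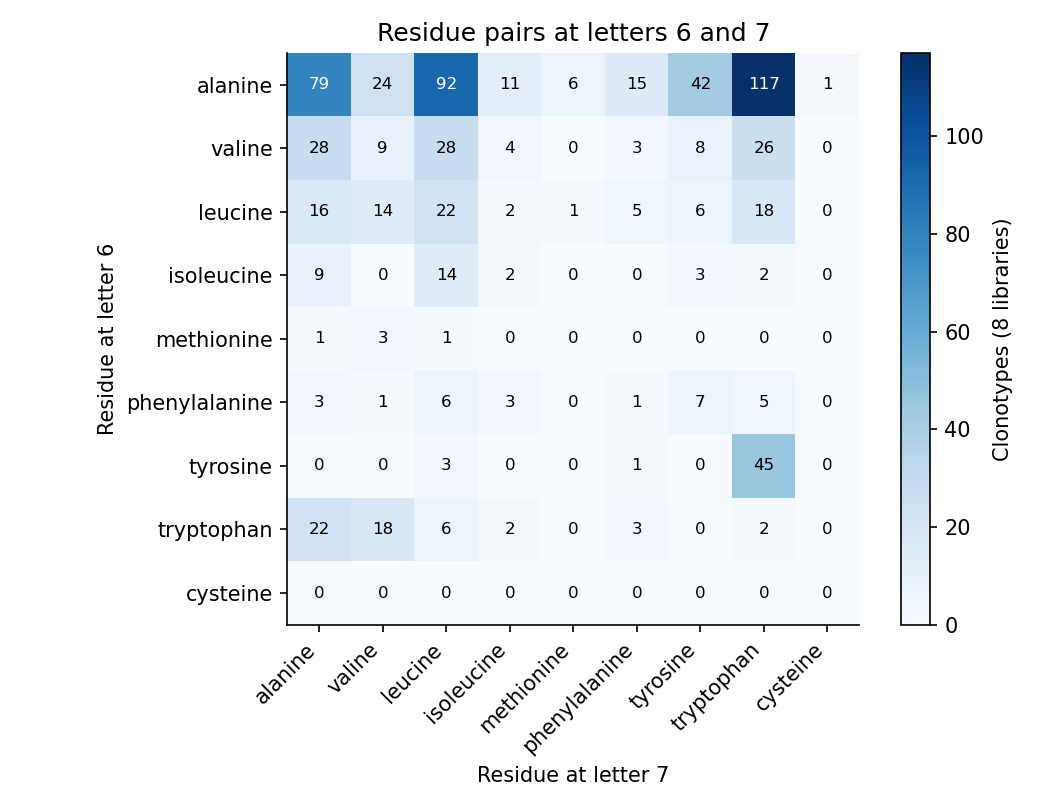
Number of clonotypes over the 8 libraries (colour and printed number) for each residue at letter 6 (rows) and letter 7 (columns) of the members. The alanine row holds 387 of the 740 members, with the largest cell, 117, at alanine-tryptophan.

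The counts of single pairs were small and varied by library. Alanine-tryptophan was found in 9, 24, 7 and 11 clonotypes in experiment 1, in the order WT with IgG, WT with anti-4-1BB, KO with IgG and KO with anti-4-1BB. In experiment 2 it was found in 25, 6, 19 and 16 in the same order. As shares of all clonotypes it lay between 0.225 and 0.720%, with both extremes in WT libraries of experiment 2. Alanine-alanine lay between 0.0884 and 0.547%, and alanine-leucine between 0.238 and 0.397%. Alanine-tyrosine had 17 of its 42 clonotypes in the anti-4-1BB WT library of experiment 1, and 7 of these were the same beta chain with different alpha chains.

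The pairs were compared between groups with edgeR's quasi-likelihood test on clonotype counts over all 101 pairs, hydrophobic or not, that had 10 or more clonotypes in at least 2 libraries. With anti-4-1BB 0 pairs passed an adjusted p of 0.05 (0% of those tested), with 5 at an unadjusted p under 0.05 and 0 calls by DESeq2. Between KO and WT 0 passed (0%), with 2 at an unadjusted p under 0.05 and 0 by DESeq2. Of the 81 member pairs 4 were frequent enough to be tested. Alanine-alanine had a log2 difference of -0.65 ± 0.41 (SE) with anti-4-1BB and -0.77 ± 0.41 in KO, with adjusted p of 0.842 and 0.885. For alanine-tryptophan the log2 differences were -0.21 and 0.15, for alanine-leucine -0.12 and -0.30, and for alanine-tyrosine -0.06 and -0.08. The median over the 4 was -0.16 with anti-4-1BB and -0.19 in KO, against -0.00 and -0.01 over all 101 pairs. Alanine-tyrosine passed the filter on low counts only through 2 libraries, with 17 clonotypes in WT with anti-4-1BB of experiment 1 and 11 in KO with IgG of experiment 2. It could not be tested without either. Leaving out single libraries, where a test was possible, turned the sign of all but alanine-alanine in at least 1 of the contrasts.

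Members used the Vβ8 family of V segments more than the other receptors did. The family was taken as the labels TRBV13-1, TRBV13-2, TRBV13-3 and the joined label TRBV12-2+TRBV13-2, whose contigs carried the CDR1 of TRBV13-2 in 99.7% and that of TRBV12-2 in 0. It was found in 383 of 740 members. Per library it made up 50.9 ± 4.31% of members (SD, n = 8, range 42.6 to 56.8%) and 27.2 ± 2.11% of the others (range 23.1 to 29.8%). The ranges did not overlap, and the share was higher among members in 8 of 8 libraries. Seen from the other side, 4.86% of Vβ8 clonotypes had a hydrophobic centre, against 1.69% of clonotypes with any other V label.

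The test of segment use covered 152 V and J labels of both chains, members against others with the library as a term, in edgeR's quasi-likelihood fit. At an adjusted p under 0.05, 4 labels were called (2.63% of those tested), and all 4 were TRBV labels, which is 11.8% of the 34 TRB labels tested. The rule reads letter 6, where alanine stood in 21.0% of joined-label clonotypes and 4.40% of those without a Vβ8 label. V labels are thus linked to the rule, and their p-values are not independent of it. How far the V segment itself supplied letter 6 was not tested. The joined label TRBV12-2+TRBV13-2 was higher, at 32.4% of members and 11.95% of the others (log2 difference 1.44 ± 0.09 SE, adjusted p = 9.59e-35, higher in 8 of 8 libraries). TRBV5 was lower, at 1.62% against 5.60% (-1.79 ± 0.33, adjusted p = 1.09e-05, lower in 8 of 8). TRBV26 (2.30% against 5.20%, -1.17 ± 0.30, adjusted p = 0.00849) was also lower, in 7 of 8 libraries. TRBV15 (2.03% against 4.68%, -1.19 ± 0.33, adjusted p = 0.0150) was higher in 0 of 8. The last of these lost its call without any of 3 libraries: both KO anti-4-1BB libraries and the anti-4-1BB WT library of experiment 1, with adjusted p of 0.0616, 0.0894 and 0.150. TRBV26 and TRBV15 also lost their calls with DESeq2 and with TMM factors. The SE in this fit came from a spread pooled over all TRBV labels that lay close to counting error. TRBV5, TRBV26 and TRBV15 had 12, 17 and 15 members over all libraries. These labels passed the filter on low counts only through the counts of the others, where they were more frequent. Their calls thus rest on few member clonotypes.

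TRBV5 lies at 41062359 to 41062803, TRBV15 at 41141211 to 41141658 and TRBV26 at 41227525 to 41227913 of mouse chromosome 6, in the RefSeq annotation of GRCm38.p6. They are V gene segments of the beta locus, each of which encodes the start of CDR3 beta. TRBV13-1, at 41116036 to 41116468 of the same chromosome, reached a log2 difference of 0.58 ± 0.18 with adjusted p = 0.0551. TRBV13-2 alone gave 0.91 ± 0.37 (adjusted p = 0.174), and TRBV13-3 gave 0.02 ± 0.19. Of the 4 Vβ8 labels 1 was called and 4 had a positive log2 difference, with a median of 0.75 against -0.06 over all 152 labels. The 2 Vβ5 labels, TRBV12-1 and TRBV12-2, gave negative log2 differences of -1.04 and -0.78, and 0 of 2 were called.

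**Figure D3:**
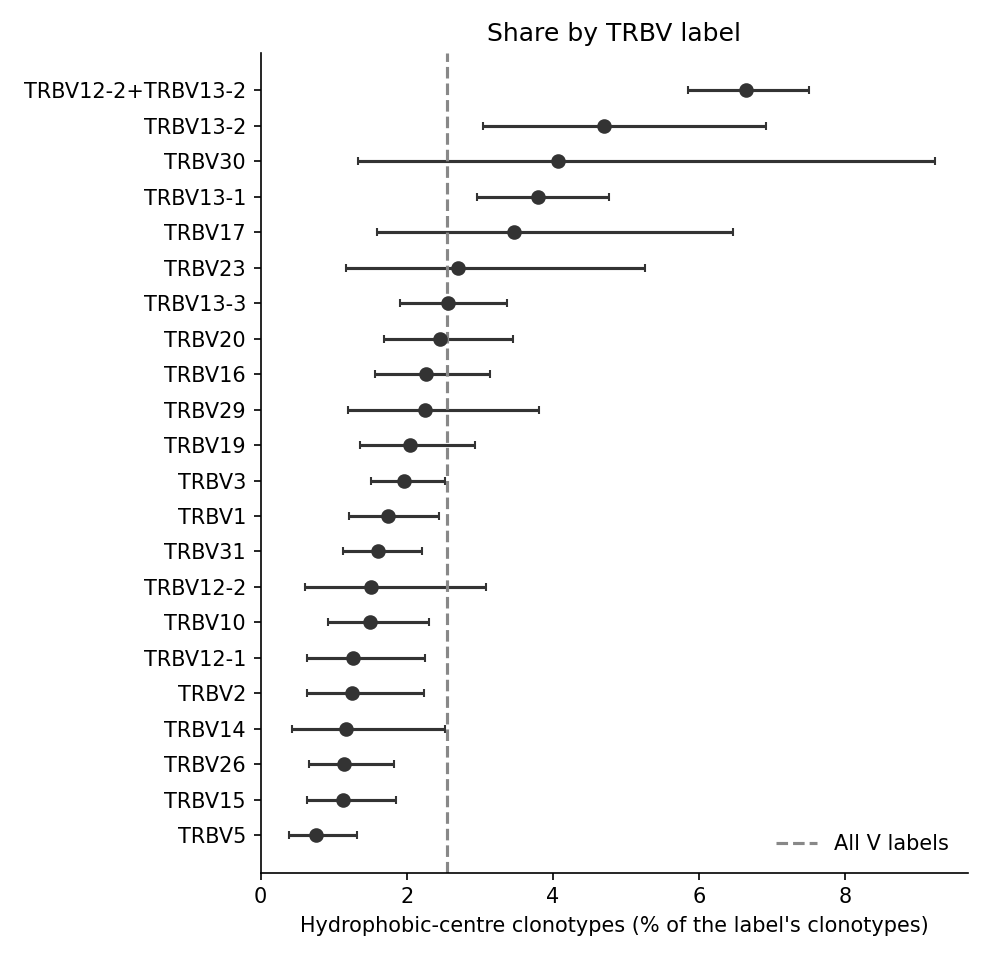
Percent of clonotypes with a hydrophobic centre (x axis) for each TRBV label with 100 or more clonotypes (y axis), pooled over the 8 libraries, with 95% Clopper-Pearson intervals for counting error. The joined TRBV12-2+TRBV13-2 label lies highest at 6.64% and TRBV5 lowest at 0.754%, around the 2.55% over all labels (dashed).

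Alanine at letter 6, a residue the rule uses, differed in frequency between V labels. It stood there in 16.0% of Vβ8 clonotypes and in 4.40% of the rest. Other hydrophobic residues at letter 6 were at 13.9 and 12.1%, and letter 7 was hydrophobic in 19.2 and 19.6%. Members without alanine at letter 6 were 1.59% of Vβ8 clonotypes and 1.08% of the rest. Among clonotypes without alanine at letter 6, the joined label had a log2 difference of 0.81 in the same direction (adjusted p = 0.00666, edgeR). TRBV26 and TRBV15 did not pass there. Among clonotypes without the Vβ8 labels, 0 segments were called, with adjusted p = 0.0754 for TRBV5. These 2 restrictions were chosen after seeing the data. Members in them are still defined by letters 6 and 7, so these p-values are not independent of the rule either.

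The residues next to the centre differed as well. Letter 5 was acidic in 49.6 ± 5.34% of members and 18.5 ± 1.501% of others (SD over 8 libraries), higher in 8 of 8. Letter 4 was glycine in 36.9 ± 3.98% and 14.4 ± 1.30%, also in 8 of 8. Letter 5 was aspartate in 45.9% of Vβ8 clonotypes and 3.23% of the rest, so V use moved with the acidic letter. In the printed sequences these letters are the bases ggt and gat before the capitals of the joined-label chains. On the far side, letter 8 was glycine in 49.9 ± 5.50% of members and 32.5 ± 0.892% of others, and letter 9 in 27.4 and 18.3%, higher in 8 and 7 of 8 libraries. Glycine at letter 8 followed 93.3% of the tyrosine-tryptophan and 70.9% of the alanine-tryptophan pairs, and 4.76% of the alanine-tyrosine pairs.

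Among the J segments, members leaned to the TRBJ2 cluster, the group nearer the second constant gene. TRBJ2 made up 77.1 ± 3.29% of members and 69.1 ± 1.59% of others, higher in 8 of 8 libraries, although 0 of the 12 TRBJ labels passed the edgeR test. TRBJ2-1 gave a log2 difference of 0.41 ± 0.17 and TRBJ2-5 of 0.32 ± 0.13. TRBJ1-5 gave -1.67 ± 0.60, at 6 members, or 0.811% against 2.57% of others. The adjusted p of these labels ran from 0.139 to 0.197 in edgeR. The position of the J segment relative to the central codons was compared as a description. The codon of letter 7 overlapped the stretch matching the J segment in 158 members, 21.6 ± 4.67% per library against 21.9 ± 0.909% of others and higher in 4 of 8. The codon of letter 7 lay wholly in that stretch in 35 members, 4.97 ± 3.50% per library against 8.70 ± 0.646% of others and higher in 2 of 8. The codon of letter 6 did so in 0 members and in 1.19% of others.

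A D label was missing more often in members. It was absent in 87.1% of members and 77.4% of others, a difference of 9.74 ± 4.18 points (SD, n = 8 libraries) seen in 8 of 8. The exact permutation test over all sign patterns of the libraries gave p = 0.0078, the smallest possible, and an adjusted p of 0.0234 over the 9 measures compared in this way. The label TRBD1 was given to 3.38% of members and 14.7% of others, lower in 8 of 8 libraries. TRBD2 was given to 9.52 and 7.96%, higher in 5 of 8. A D label needs a match within the same bases that the rule constrains. The test of the D label is therefore not independent of the rule, and its result is given as a description.

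Members had longer CDR3 beta loops. The mean length was 14.3 letters in members and 13.9 in others, 0.423 ± 0.149 letters more and higher in 8 of 8 libraries (exact permutation adjusted p = 0.0234). The rule sets the lowest length and reads 2 letters at a fixed distance from the first cysteine. The test of length is therefore not independent of the rule, and its result is given as a description. Members were 2.07% of clonotypes at 12 letters, 1.70% at 13, 2.29% at 14 and 3.01% at 15. They reached 5.19% (104 of 2003) at 16 letters and 7.23% (34 of 470) at 17. Over the libraries, the share was 1.78 ± 0.43% at 12 to 13 letters, 2.53 ± 0.446% at 14 to 15 and 5.68 ± 1.36% at 16 or more. Among clonotypes without Vβ8 labels the difference in length was 0.275 letters (exact permutation adjusted p = 0.141), and without alanine at letter 6 it was 0.341 (0.0703). Just outside the rule, 61 of 1248 clonotypes of 11 letters (4.89%) had both letters hydrophobic, and just inside it 75 of 3624 of 12 letters.

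**Figure D4:**
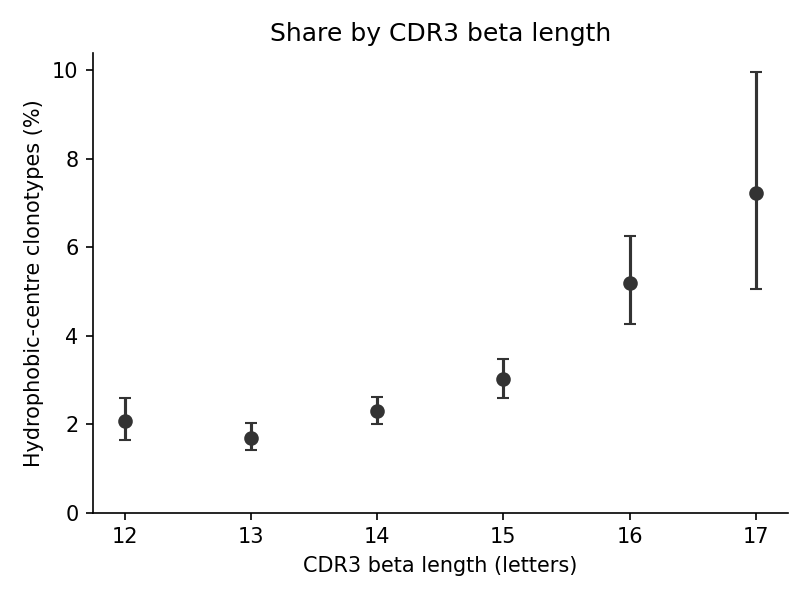
Percent of clonotypes with a hydrophobic centre (y axis) by CDR3 beta length in letters (x axis), for lengths with 100 or more clonotypes pooled over 8 libraries, with 95% Clopper-Pearson intervals for counting error. The share is 1.70 to 2.29% at 12 to 14 letters and 7.23% at 17.

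Clone size in members and others differed by less than the spread between libraries. Clonotypes of 2 or more cells, called expanded, were 82 of 740 members (11.1%) and 10.2% of the others. Within libraries the difference was 0.24 ± 2.47 percentage points, higher in 5 of 8 (exact permutation p = 0.789, adjusted 0.992). Clones of 5 or more cells were 6 of 740 members (0.811%, interval 0.298 to 1.76%) and 1.59% of others. No member had 10 or more cells, which allows a share of up to 0.497% by the exact interval, against 117 of 28233 others (0.414%). At this depth a difference there was not detectable. The largest members held 9 cells in the KO IgG library of experiment 2 (valine-leucine) and 9 in the anti-4-1BB WT library of experiment 2 (alanine-leucine), against 71 for the largest other clone. The next held 7 cells (alanine-leucine, WT anti-4-1BB, experiment 1), and 3 clones tied at 5 cells, of which leucine-tryptophan (KO anti-4-1BB, experiment 2) is printed above.

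A narrower set of residues gave a different result for clone size. With phenylalanine, isoleucine, leucine, methionine, valine and tryptophan alone there were 201 members (0.694% of clonotypes). Of these 32 were expanded, and within libraries the expanded share was 17.1% against 10.2%, a difference of 6.82 ± 4.94 points. It was higher in 7 of 8 libraries, with an exact permutation p of 0.0156 and an adjusted p of 0.0469. Each library held only 11 to 57 such clonotypes and 1 to 7 expanded ones, and 14 of the 201 had 3 or more cells. Among all clonotypes without alanine at letter 6 the difference was 4.31 points (exact permutation adjusted p = 0.105). In the full set, clonotypes of 3 or more cells were 0.922 points less frequent in members (exact permutation adjusted p = 0.239).

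Taken over all V labels, members were shared between libraries less often. A clonotype was called public when its TRB, by V label, J label and CDR3 letters, was also in another library. This held for 31 of 740 members (4.19%) and 2623 of 28233 others (9.29%). Per library the public share of members ran from 2.16 to 7.83% and that of others from 7.66 to 12.03%. Members were lower in 8 of 8 libraries, by 4.91 ± 2.21 points on average (exact permutation p = 0.0078, adjusted 0.0234). The libraries lend each other this measure, so they are not independent for it. With the others weighted to the members' lengths the difference was -3.70 points (exact permutation adjusted p = 0.0352), and by nucleotides it was -2.17. Without the Vβ8 labels the difference was larger, at -9.57 points, again lower in 8 of 8 libraries. Its exact permutation p was the smallest possible, 0.0078. Fewer of the 9 measures were that low there, and the adjusted value was 0.0703 by exact permutation. The shared chains printed above all carry Vβ8 labels. Public share was not compared within Vβ8 alone, so the lower share is not shown for that part of the members.

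**Figure D5:**
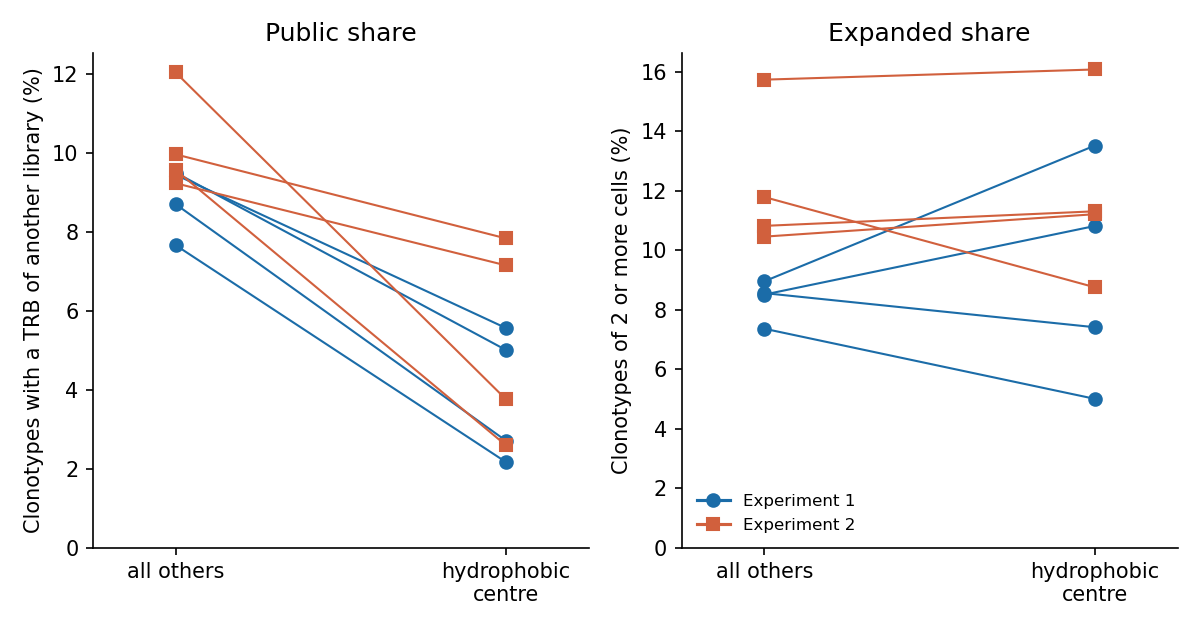
Public share (left) and expanded share (right) in percent of clonotypes (y axes) for members and all others, with a line for each of the 8 libraries and colour and symbol for the experiment. All 8 lines fall for the public share, from 7.66 to 12.03% down to 2.16 to 7.83%, while 5 of 8 rise for the expanded share.

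The 31 public members came from 15 beta chains, of which 13 had more than 1 nucleotide form and 15 were paired with 2 or more alpha chains. The most widely shared, TRBV12-2+TRBV13-2 with TRBJ2-1 and alanine-tyrosine, was in 3 libraries: KO IgG of both experiments and WT anti-4-1BB of experiment 2. It had 2 nucleotide forms and 3 different alpha chains. All other shared chains of members were in 2 libraries. Of the 28233 other clonotypes 202 (0.715%) had a beta chain present in 5 or more libraries. This held for 0 of 740 members, which allows up to 0.497% by the exact interval. Of the 15 shared chains 8 were found in both experiments. Identical pairs of alpha and beta chains, by labels and CDR3 letters, were seen in 2 or more libraries for 137 of 27905 others. They were seen for 0 of 740 members, which again allows up to 0.497%. The share among the others lies within that bound, and a difference there was not tested.

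The alpha partners of the members were diverse. The 740 clonotypes used 77 TRAV labels, 43 TRAJ labels and 549 combinations of them, with 720 distinct alpha chains. Of the 118 TRA labels tested 0 passed (0%, edgeR), with 6 at an unadjusted p under 0.05 and 1 call by DESeq2. TRAJ58 gave a log2 difference of -2.14 ± 0.83, with 2 members. TRAV7D-3 gave -1.92 ± 0.85 (2 members), TRAV14-2 -1.13 ± 0.52 (7) and TRAV6-2 -2.27 ± 1.06 (1). In the other direction TRAJ57 gave 0.70 ± 0.33 with 25 members and TRAJ42 gave 0.50 ± 0.29 with 30. Their adjusted p ran from 0.174 to 0.466 in edgeR. TRAJ58 passed with a minimum of 3 UMIs (adjusted p = 0.0397) and TRAV14-2 with TMM factors (0.0398).

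The centre of the alpha chain was compared in the same way. Letters 6 and 7 of CDR3 alpha were both hydrophobic in 2.37% of members and 2.30% of others (difference 0.0661 ± 2.01 points, n = 8, exact permutation adjusted p = 0.992). CDR3 alpha was 13.6 letters in members and 13.4 in others, 0.14 ± 0.136 letters longer and higher in 7 of 8 libraries. This did not pass (exact permutation p = 0.0234, adjusted 0.0527), and it passed without the anti-4-1BB KO library of experiment 2 at 0.169 letters (adjusted 0.0352). Clonotypes whose first listed cell had 2 alpha chains made up 5.18% of members and 5.91% of others (exact permutation adjusted p = 0.797).

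Receptors of other T cell types were rare. The alpha chain of invariant natural killer T cells, TRAV11 or TRAV11D with TRAJ18, was in 5 of 740 members (0.676%) and 207 others (0.733%). That of mucosal-associated invariant T cells, TRAV1 with TRAJ33, was in 0 members, which allows up to 0.497%, and in 4 others. Within libraries the invariant natural killer T share was 0.726% in both sets (exact permutation adjusted p = 0.992).

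Some beta chains appeared with several alpha chains in 1 library. This held for 62 of 740 members (8.38%) and 8.90% of others, counted by identical TRB nucleotides. Per library it ran from 0 to 14.7% in members and from 3.32 to 14.1% in others. The chain with the most partners was alanine-tyrosine with TRBV12-2+TRBV13-2 and TRBJ2-3, printed above, with 7 alpha chains of 7 different TRAV labels in 10 cells of the anti-4-1BB WT library of experiment 1. The next by amino acids was tyrosine-tryptophan with TRBV13-1 and TRBJ2-5, with 4 clonotypes in 9 cells of the same library. Whether cells or free RNA caught together contribute to such chains was not tested. The UMI support of the beta contigs of single-cell clonotypes was 3.70 on the log2 scale in members and 3.65 in others (exact permutation adjusted p = 0.520).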

How the data were processed

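Single-cell receptor contigs of 8 libraries were analysed. Per the file headers, the deposited tables give the count of reads and of UMIs per contig with V, D and J labels and CDR3. Per the submitters' processing notes, the authors used bcl2fastq 2.20.0, Cell Ranger 7.1.0 and Seurat, and the build was GRCm38. Which V(D)J reference served is not given in the sources used here. Of 34 TRB labels 33 matched a RefSeq symbol, the joined label being the exception.

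Cells with 1 TRB and 1 or 2 TRA were kept, and cells with 2 TRB were left out as possible doublets, with no doublet caller. The member share was compared by exact permutation within strata. The 9 differences between members and others were compared over sign patterns of 8 libraries, with Benjamini-Hochberg adjustment over the 9. Clonotype counts of residue pairs and segments were fitted with edgeR 4.0.16 in R 4.3.3 (quasi-likelihood), with 10 or more clonotypes in at least 2 columns and adjustment over all pairs or all 152 segments. In the pair, TRBV, TRAV and TRAJ fits the prior degrees of freedom were infinite, so each SE rests on a spread pooled over features. DESeq2 1.42.0, TMM factors, other filters, sets and units, and leaving out each library were alternatives. The fitting code was tested on simulated data, where it missed part of the changed segments and, at the larger fold, also called some unchanged ones, so segment calls and their absence are read with that limit. Other values used scipy 1.17.1, pandas 2.3.3 and numpy 2.4.6 under Python 3.11.15, and figures matplotlib 3.10.9.

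Replicate numbers are experiments, which the labels mark as batches, so they pair libraries. Deviations of same-numbered libraries correlated between -0.0736 and 0.156 (over 0.1 in 2 of 6 group pairs). Named segments were the 6 called with the smallest p per direction and type, or the 3 with the smallest p where fewer than 3 were called. Named pairs were the 10 most frequent. Named sequences were the 4 largest members, the 6 in most libraries (ties by clonotypes, then cells) and 1 for each of 5 pairs. The members and lists were chosen with earlier results of these data known. Intervals cover counting error only.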

Additional observations from a re-analysis of the deposited data

Results flagged for a closer look

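The sign of the difference in share between anti-4-1BB and IgG was opposite in the 2 experiments. In experiment 1 the anti-4-1BB libraries had the higher share, by 0.308 percentage points in WT and 0.204 in KO. In experiment 2 they had the lower share, with a difference of -1.24 points in WT and -0.152 in KO. Only in WT of experiment 2 did the counting intervals not overlap (2.77 to 3.99% with IgG, 1.59 to 2.72% with anti-4-1BB). The other differences lay within overlapping intervals. The difference between the experiments was not tested, and it cannot be told apart from the kind of knockout and the use of tamoxifen.

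Cells left out of the clonotypes carried hydrophobic centres too. Among cells with 1 TRB and no TRA, 559 of 21139 beta chains of 12 or more letters were hydrophobic at both letters (2.64%, Clopper-Pearson interval 2.43 to 2.87%), with 2.05 to 3.13% per library. Among cells with 2 TRB it was 180 of 6762 chains (2.66%, 2.29 to 3.07%), with 1.87 to 3.10% per library. Both values are counted over chains of cells and not over clonotypes.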

How the results depend on the processing

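The lower public share kept its direction under every alternative, with adjusted exact permutation p of 0.0234 to 0.0703. Without one library it ran from -5.32 to -4.43 points, the length difference from 0.40 to 0.457 letters, and the missing D label from 9.11 to 10.7 points. Without the Vβ8 labels the adjusted values no longer passed for public share (-9.57), length (0.275) and D label (10.9). Length also missed without alanine at letter 6 (0.341), and the D label with the narrower residue set (9.32).

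The group differences of the share turned sign with the narrower set (0.0524 points for anti-4-1BB, 0.121 for KO) and without alanine at letter 6 (0.0483 and 0.0961). For KO the sign also turned with clonotypes by TRB alone (0.00938) and without Vβ8 (0.0835). Leaving out single libraries gave -0.396 to 0.120 points for anti-4-1BB and -0.178 to 0.185 for KO. The replicate block was the main design for the share. Without the block, exact permutation p was 0.611 and 0.944. With it in the pair fits 0 and 0 pairs were called by edgeR, so the pairing changed no call.

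The expanded share gave 6.82 points with the narrower set, -0.922 at 3 or more cells, -0.519 by TRB alone, and -0.378 to 0.707 without single libraries. CDR3 alpha length gave -0.0572 letters with the narrower set and 0.106 to 0.169 without single libraries. The hydrophobic alpha centre gave -0.304 points over cells, -0.771 without Vβ8, -0.433 without alanine at letter 6 and -0.285 to 0.429 without single libraries. The invariant natural killer T share gave 0.0407 over cells, 0.117 with 3 or more UMIs, 0.475 with the narrower set, 0.0542 without Vβ8, 0.192 without alanine at letter 6 and -0.172 to 0.119 without single libraries. TRB UMIs gave -0.00432 (log2) without alanine at letter 6.

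Against 4 TRB segments called, 2 were called at 13 to 15 letters, 8 over cells, 2 with the narrower set and 0 without Vβ8. Against 0 TRA segments, 1 was called with 3 or more UMIs, 1 over cells, 2 with TMM and 1 with DESeq2. TRBJ2-1 turned to -0.014 at 13 to 15 letters and TRAJ42 to -0.25 with the narrower set. For single pairs with anti-4-1BB, alanine-leucine turned to 0.15 over cells. Without single libraries the pairs ran from -0.47 to 0.22 (alanine-tryptophan), -0.25 to 0.0299 (alanine-leucine) and -0.32 to 0.38 (alanine-tyrosine). In KO they ran from -0.11 to 0.58 (alanine-tryptophan) and -0.34 to 0.36 (alanine-tyrosine). Alanine-tyrosine had no value without WT anti-4-1BB of experiment 1 or KO IgG of experiment 2, so its ranges cover the other 6 libraries left out. The cause of these changes was not tested.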
